A study of Mus musculus with 8 samples.

Results

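The clustered histone genes of the mouse were followed by histone type through resting, replicating and mitotic thymocyte-like cells and through the non-dividing cells of the aortic wall. They were chosen by symbol, as every gene whose name starts with Hist1h, Hist2h, Hist3h or Hist4. This gave 67 of the 32285 genes in the deposited matrix: 6 of type H1, 18 of H2A, 18 of H2B, 12 of H3 and 13 of H4. On GRCm38.p6, 54 of them lie on chromosome 13 between 21715711 and 23934913, 10 on chromosome 3, 2 on chromosome 11 and 1 on chromosome 6. Hist1h2ba and Hist1h2aa had no UMI in any barcode.

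Histones H2A, H2B, H3 and H4 form the protein core that DNA wraps around, and H1 sits on the linker DNA between these cores. Most clustered histone genes are made in bulk while DNA is copied, when new chromatin has to be packed. Their mRNAs end in a short stem-loop bound by the protein Slbp instead of a poly(A) tail, and they are destroyed when replication ends. Some clustered members also make polyadenylated RNA in cells that have left the cycle. The libraries here were 3′ libraries primed on poly(A), which capture RNA without a tail poorly. A level in what follows is therefore the level of captured RNA, and the share of each member's RNA that was captured was not measured.

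The cells came from the ascending thoracic aorta of 3 aged mice of 81, 84 and 88 weeks, pooled after each animal's cells were marked with its own hashtag, a barcoded antibody. No genotype, treatment or age contrast entered the comparisons, which set cell classes of the same animals against each other. The 4 gene expression and 4 hashtag libraries are not kept apart in the matrix, so neither a depth per library nor the barcodes that libraries share could be given. Of 26916 barcodes, 4061 cells were kept, with exactly 1 hashtag each. Among cells of at most 1 hashtag, 84.9% of 5094 smooth muscle-like and 84.8% of 1244 fibroblast-like cells had no hashtag and were left out, against 10.7% of endothelial-like and 10.7% of resting thymocyte-like cells. Thymocyte-like cells, immature T cells of the thymus, were named from their markers (Rag1, Cd4, Cd8b1 and others) in tissue labelled as aorta, and how they came to be in it was not tested.

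The thymocyte-like cells fell into 4 states by markers of DNA replication (Mcm2 to Mcm7, Pcna and others) and of mitosis (Ccnb1, Plk1, Top2a and others). In 746 resting cells neither set was raised. In 176 replicating cells the first led, with a score of 3.31, and mitosis markers were raised less, at 1.59. Scores are mean log2 levels relative to all clusters. In 124 mitotic cells the second led at 4.23, and replication markers, at 0.75, stayed under the naming limit of 1.5. In a further 433 cells the second led at 3.77 and replication markers were also raised, at 2.6. These are called dual-marker cells. That state was added after the data were examined. The non-dividing wall classes were 816 smooth muscle-like, 948 endothelial-like and 188 fibroblast-like cells, and 169 cells had the markers of selected T cells. No histone gene was used to form the clusters, but genes that move with histone genes were, so a difference between states is not independent of the grouping. The animal of 81 weeks gave 9 resting, 4 replicating and 2 mitotic cells. Since a sum needed at least 10 cells, the tests between thymocyte-like states rest on the animals of 84 and 88 weeks.

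Levels are raw UMIs (counted molecules) summed per animal and class and given as CPM, that is, scaled to the UMIs of all genes in that sum. Such a sum cannot tell fewer cells with the RNA from less RNA per cell. A member was called higher or lower where edgeR's quasi-likelihood test, adjusted by Benjamini-Hochberg over all genes tested, gave a value under 0.05 and the log2 difference was 1 or more in size. Of the 67 members, 54 passed the filter on low counts in the thymocyte-like states and 39 in the fit of wall and resting cells. A member that passed only through the state in which it is high had to differ, so counts of called members describe the set and are no support for it. Many members are near-identical copies of each other, so the assignment of reads among copies is uncertain. Over all barcodes Hist1h2bq had 1 UMI and Hist1h2br 3802, and Hist2h2aa2 had 4 and Hist2h2aa1 7126. Whether reads that match more than 1 copy were counted was not tested, and any such loss would lower the sums by type as well.

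The promoters of 8 members are shown because the results turn on them: the member of highest mean CPM of each type in dual-marker cells (Hist1h2ap, Hist1h1b, Hist1h3c, Hist1h2bm and Hist1h4d), then Hist1h1c and Hist2h2aa1, which ranked high in wall cells, and Hist3h2ba, which fell in replicating cells. Each sequence is the 120 bases before the start site on GRCm38.p6, from RefSeq. Capitals mark CCAAT and its reverse complement, the TATA box letters TATAAA or TATATA, the octamer ATTTGCAT of H2B promoters and the H1 box AAACACA, each read on both strands.
Hist1h2ap: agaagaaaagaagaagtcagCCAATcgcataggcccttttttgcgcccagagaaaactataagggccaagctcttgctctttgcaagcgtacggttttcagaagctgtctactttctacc
Hist1h1b: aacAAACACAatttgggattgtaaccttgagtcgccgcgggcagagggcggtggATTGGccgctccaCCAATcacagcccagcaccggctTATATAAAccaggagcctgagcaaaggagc
Hist1h3c: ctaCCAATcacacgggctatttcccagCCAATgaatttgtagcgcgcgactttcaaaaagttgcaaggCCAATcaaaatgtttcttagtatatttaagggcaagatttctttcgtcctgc
Hist1h2bm: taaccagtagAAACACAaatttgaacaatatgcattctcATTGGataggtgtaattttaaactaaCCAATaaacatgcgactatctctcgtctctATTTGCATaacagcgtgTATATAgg
Hist1h4d: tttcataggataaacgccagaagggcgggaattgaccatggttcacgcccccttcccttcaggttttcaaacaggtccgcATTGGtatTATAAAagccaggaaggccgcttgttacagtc
Hist1h1c: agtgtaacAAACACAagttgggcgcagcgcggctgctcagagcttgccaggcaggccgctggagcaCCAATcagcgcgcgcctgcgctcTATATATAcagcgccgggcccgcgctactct
Hist2h2aa1: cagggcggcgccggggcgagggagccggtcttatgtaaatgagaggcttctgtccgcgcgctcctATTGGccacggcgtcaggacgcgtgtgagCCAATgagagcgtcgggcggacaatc
Hist3h2ba: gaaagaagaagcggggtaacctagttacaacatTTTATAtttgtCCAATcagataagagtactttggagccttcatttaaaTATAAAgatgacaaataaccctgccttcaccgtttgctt
The windows lie, in that order, at chr13:21833476-21833595, minus strand; chr13:21780626-21780745, minus strand; chr13:23745522-23745641, minus strand; chr13:21721924-21722043, plus strand; chr13:23581448-23581567, plus strand; chr13:23738687-23738806, plus strand; chr3:96245377-96245496, plus strand; and chr11:58948791-58948910, plus strand.

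All 67 members matched RefSeq by name, 1 of them through a name with more than 1 entry, and 62 had a promoter there. In the 250 bases before the start, CCAAT was present in 51 of the 62 member promoters (82.3%) against 33.8% of 32851 promoters of the same length. All 6 H1, all 18 H2A and all 16 H2B promoters held it, as did 8 of 10 H3 promoters, while 3 of 12 H4 promoters did. TATAAA or TATATA, 2 spellings of 1 motif that can overlap, was present in 35 members (56.5%) against 15.6% of all promoters. The octamer ATTTGCAT was found in 13 members (21.0%) against 1.60% of all promoters, and the 13 were 7 H2A and 6 H2B genes. Some H2A and H2B genes start back to back with under 250 bases between their starts, so their windows share DNA. A site there can count for both genes, as may hold for Hist1h2ae and Hist1h2bg, which both held the octamer. Counts of any motif are thus not counts of separate sites. The H1 box AAACACA was found in 5 of the 6 H1 promoters (83.3%) and in 9 members in all, against 6.25% of all promoters. The promoter of Hist1h1c, which was not called in replicating cells, and that of Hist1h1b, which rose, both held the H1 box, CCAAT and a TATA box. A match is a description of these letters and not of a bound factor.

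Captured histone RNA made up 0.255% of UMIs in resting thymocyte-like cells, 1.13% in replicating, 2.63% in dual-marker and 1.16% in mitotic cells. In wall cells it made up 0.0631% in smooth muscle-like, 0.0480% in endothelial-like and 0.0488% in fibroblast-like cells. The summed level of all members was 2577 and 2443 CPM in resting cells of the animals of 84 and 88 weeks, 11310.3 and 10833 CPM in replicating cells, and 11229 and 13022 CPM in mitotic cells. Dual-marker cells had 29917, 25275 and 30226 CPM in the animals of 81, 84 and 88 weeks. The dual-marker values lay above those of every other state in each animal, and replicating and mitotic values overlapped. Depth moved with state as well: the median was 2864 UMIs per cell in resting, 5950.5 in replicating, 6489 in dual-marker and 5029.5 in mitotic cells, and its part in the levels was not tested.

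The 5 types did not rise in proportion. H2A went from 624 ± 17.0 CPM (SD, n = 2 animals) in resting cells to 5076 ± 188 (n = 2) in replicating and 14704 ± 2235 (n = 3) in dual-marker cells. H3 went from 157 ± 26.9 to 816 ± 13.6 and 2369 ± 115 CPM over the same states. H1 was the most abundant type in resting cells at 1154 ± 8.83 CPM and reached 3684 ± 159 in replicating and 8088 ± 462 in dual-marker cells. H1 genes thus gave 46.0% of the member CPM in resting cells and 33.3% in replicating cells, while H2A genes gave 45.8% in replicating and 51.6% in dual-marker cells.

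H4 and H2B moved less. H4 stood at 256 ± 13.1 CPM in resting, 725 ± 66.8 in replicating, 1526 ± 75.3 in dual-marker and 806 ± 20.4 in mitotic cells. H2B stood at 319 ± 46.4 CPM in resting, 771 ± 43.6 in replicating, 1786 ± 124 in dual-marker and 1597 ± 69.8 in mitotic cells. H2B was the type whose mitotic level lay closest to its dual-marker level, whereas H2A fell to 5453 ± 543, H1 to 3087 ± 585 and H3 to 1184 ± 89.8 CPM. The H2B share of all member CPM was accordingly 12.7% in resting, 6.96% in replicating, 6.27% in dual-marker and 13.2% in mitotic cells. No test was made on sums over members.

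**Figure D1:**
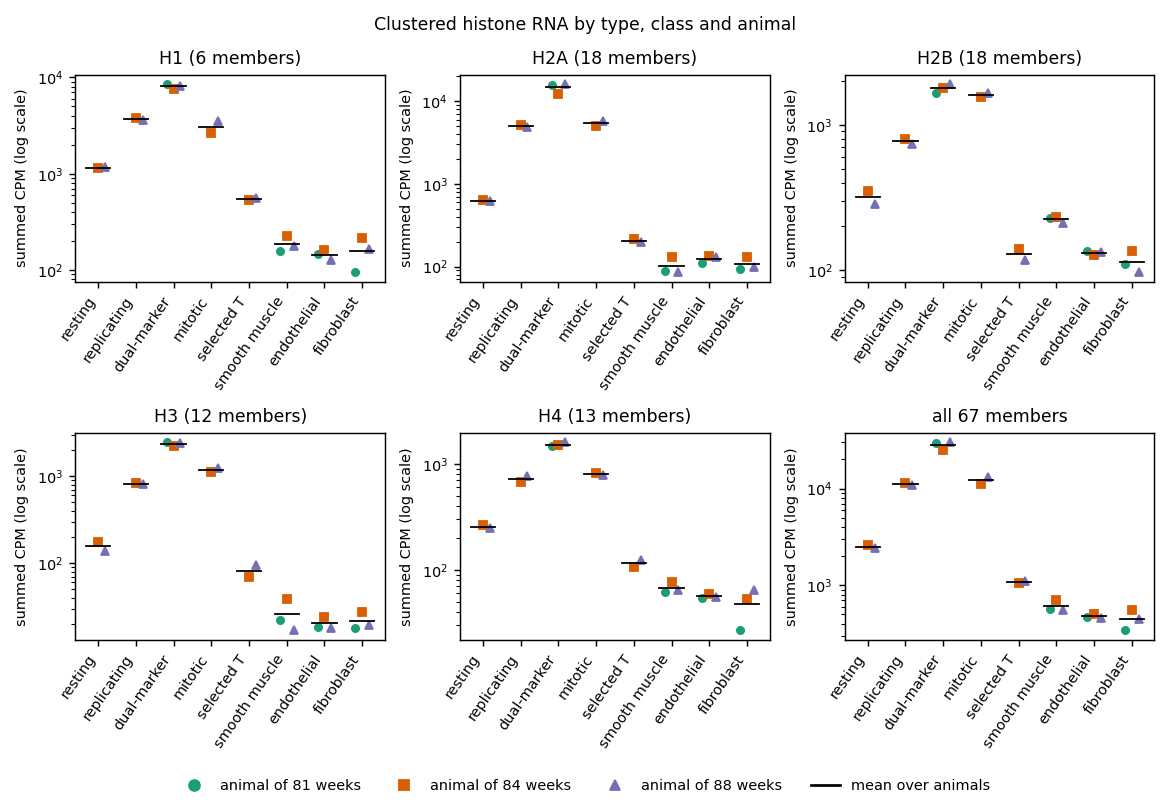
Summed CPM (log scale) of the members of each histone type and of all 67 members, by cell class; each point is 1 animal and the black line the mean over animals. The mean of dual-marker cells is highest in every panel, and the 3 wall classes lie below resting cells in each type.

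Few members carried most of the RNA. Hist1h2ap, an H2A gene, gave 28.0% of the member CPM in replicating cells and 30.2% in dual-marker cells, and with Hist1h1b and Hist1h2ae it gave 58.6% and 60.8%. In resting cells the first member was Hist1h1e, a linker histone gene, with 14.0%, and the first 3 gave 37.7%. The number of members at 20 CPM or more was 22 in resting, 39 in replicating, 51 in dual-marker and 44 in mitotic cells, against 7 in smooth muscle-like, 5 in endothelial-like and 7 in fibroblast-like cells.

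From resting to replicating cells, 36 of the 54 members tested were called higher, in a comparison where 18.2% of the 7429 genes tested were called higher. Another 2 members were called lower, where 13.2% of all genes were. The median log2 fold change was 1.61 over the members and -0.01 over all genes. By type, 9 of 12 H2A, 8 of 9 H3, 11 of 16 H2B, 3 of 5 H1 and 5 of 12 H4 genes were called higher, and both called lower were H2B genes.

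The H2A genes Hist1h2ap and Hist1h2ae led in level. Hist1h2ap had 291 and 243 CPM in resting cells of the animals of 84 and 88 weeks, and 3172 and 3038 CPM in replicating cells. The rise was 3.55 ± 0.12 (log2, SE), higher in both animals, with an adjusted p of 3.89e-29 in edgeR's quasi-likelihood test. Hist1h2ae went from 141 and 135 CPM to 1454 and 1386 CPM, a rise of 3.38 ± 0.13. Hist1h2ab, at a much lower level, went from 21.9 and 17.5 to 179 and 133 CPM. Hist2h2aa1, an H2A gene of the chromosome 3 cluster, stood at 70.7 and 69.9 CPM in resting and 111 and 116 CPM in replicating cells, 0.72 ± 0.19 apart on the log2 scale and short of the fold required.

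Of the 5 H1 genes tested, 3 rose in replicating cells. Hist1h1b rose from 178 and 190.1 CPM to 1992 and 1926 CPM, by 3.46 ± 0.12 (log2, SE). Hist1h1a rose from 65.7 and 65.6 to 299 and 284 CPM, by 2.20 ± 0.16, and Hist1h1e from 332 and 371 to 790.2 and 723 CPM, by 1.19 ± 0.12. Hist1h1c had 231 and 216 CPM in resting and 270.1 and 217 CPM in replicating cells, a difference of 0.21 ± 0.14 with an adjusted p of 0.223. Hist1h1d had 341 and 317 against 444 and 421 CPM, a difference of 0.44 ± 0.12 that was not called. With dual-marker cells counted as replicating, Hist1h1c and Hist1h1d were called as well, at 1.38 and 1.29. The difference in response between H1 genes was not itself tested.

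Among H3 genes the starting levels were low and the changes large. Hist1h3c went from 16.8 and 17.5 CPM to 333 and 291 CPM, a rise of 4.26 ± 0.20 (log2, SE). Hist1h3b had 3.37 and 0 CPM in resting and 114 and 94.7 CPM in replicating cells, with a fitted rise of 5.31 ± 0.36 that depends on the few resting UMIs. Hist1h3g had 1 UMI over all resting sums and 33 over replicating ones, a ratio of CPM of 59.9 with an exact 95% interval of 10.0 to 2438 that covers counting error only.

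H4 genes rose by less. Hist1h4d, the most abundant of them, went from 42.1 and 52.4 to 217 and 249 CPM, a rise of 2.37 ± 0.17 (log2, SE). Hist1h4a rose by 3.02 ± 0.30, from 9.54 and 8.74 to 79.1 and 59.6 CPM. Hist1h4h rose by 1.30 ± 0.18, from 78.0 and 74.3 to 165 and 232 CPM. Both animals showed each of these rises without overlap between states.

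H2B was the type with members called in both directions. Among H2A genes, most of which rose, Hist2h2ab fell from a mean of 3.87 to 0.53 CPM without a call. Hist1h2bm rose by 3.16 ± 0.24 (log2, SE), from 17.4 and 8.74 CPM to 136 and 133 CPM. Hist1h2bc, a member also made in non-dividing cells, stood at 62.3 and 54.6 CPM in resting and 111 and 123 CPM in replicating cells, a difference of 0.97 ± 0.19 just short of the fold required. Hist3h2ba, the H2B gene of the chromosome 11 cluster, was 70.2 and 56.8 CPM in resting cells and 11.6 and 7.02 CPM in replicating cells. It fell by 2.60 ± 0.34 on the log2 scale, in both animals, with an adjusted p of 6.09e-09. Hist2h2be fell by 1.32 ± 0.47, from 20.2 and 24.0 to 8.44 and 7.02 CPM, with an adjusted p of 0.0170; DESeq2 gave it an adjusted p of 0.164, so that call rests on the test. Hist3h2a, the H2A neighbour of Hist3h2ba, did not pass the filter on low counts. Its values were 14.0 and 26.2 CPM in resting and 5.28 and 7.02 CPM in replicating cells, from 5 and 2 UMIs in the latter.

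**Figure D2:**
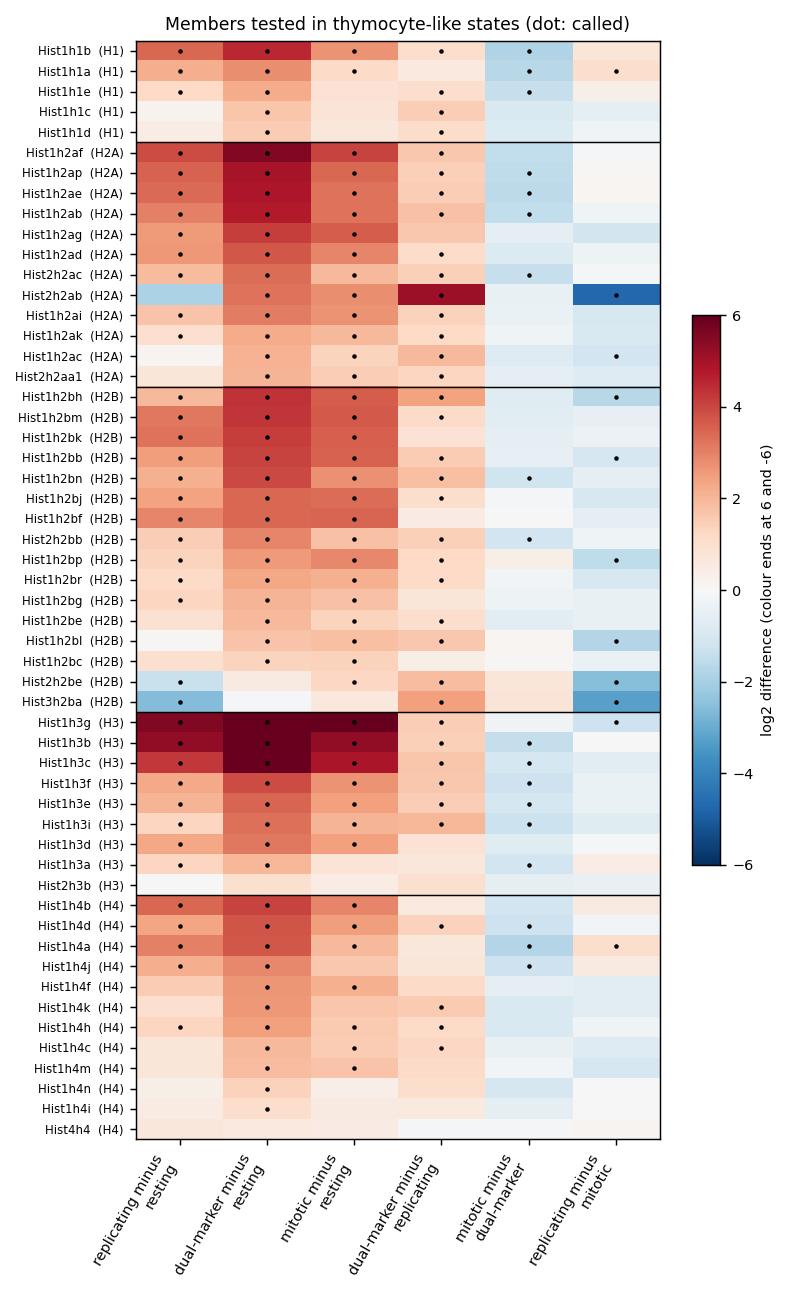
Log2 differences (colour scale, ends at 6 and -6) of the 54 members tested, in rows by type, for 6 comparisons between thymocyte-like states in columns; a black dot marks a call. The first 3 columns are mostly red, with Hist3h2ba and Hist2h2be blue and called in the column of replicating minus resting cells.

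Dual-marker cells, where mitosis markers led and replication markers were raised too, held the most histone RNA per UMI. Against resting cells 50 of 54 members were called higher (15.5% of all genes were) and 0 lower (10.6% of all genes were). Against replicating cells 37 members were called higher, where 3.76% of all genes were, and 0 lower, where 1.76% were. At an unadjusted p under 0.05, 0 members were lower in either comparison, and DESeq2 called 0 lower. These 37 comprised 11 of 12 H2A, 12 of 16 H2B, 6 of 9 H3, 4 of 5 H1 and 4 of 12 H4 genes. In DESeq2 the count higher was 24, out of the 42 members that had an adjusted p there. The median of the members was 1.21 on the log2 scale, against 0.00 over all genes.

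Hist1h2ap reached 8993, 7261 and 9554 CPM in dual-marker cells of the animals of 81, 84 and 88 weeks, 1.41 ± 0.10 (log2, SE) above replicating cells. Hist1h1b reached 4929.6, 3962 and 4341 CPM and lay 1.06 ± 0.10 above. Hist1h3c reached 1112, 1029.6 and 1054 CPM, 1.68 ± 0.12 above. The same held for members that were not called in replicating cells. Hist1h1c had 691, 729 and 665 CPM in dual-marker cells, 1.46 ± 0.13 above replicating cells, and Hist1h1d 960.2, 898 and 964 CPM, 1.08 ± 0.11 above. Hist1h1a, which had risen in replicating cells, was at 503, 418 and 512 CPM, only 0.60 ± 0.12 above and not called.

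Members that were low in replicating cells were higher in dual-marker cells, which is not particular to them, since 37 of the 54 members tested were called higher there. They are grouped here by their low replicating values, and the same replicating sums enter this comparison. A rise is thus partly built in, and its p-value is no separate support. Hist3h2ba had 82.0, 62.4 and 51.5 CPM, 2.47 ± 0.33 (log2, SE) above replicating cells with an adjusted p of 8.50e-08, and -0.13 ± 0.18 from resting cells, which was not called. Hist2h2be had 0, 28.9 and 33.3 CPM in the 3 animals, 1.85 ± 0.42 above replicating cells in the test on the animals of 84 and 88 weeks (adjusted p = 0.158 in DESeq2). The value of 0 is that of 12 cells of the animal of 81 weeks. Hist2h2ab, an H2A gene of the chromosome 3 cluster, had 1 UMI over all replicating sums and 113 over dual-marker sums, a ratio of CPM of 43.1 with an exact 95% interval of 7.59 to 1719.

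In mitotic cells 43 of 54 members were called higher than in resting cells, where 7.94% of all genes were, and 0 lower, where 2.80% were. In edgeR 0 members were lower at an unadjusted p under 0.05, and DESeq2 called 30 higher and 0 lower. All 12 H2A and 15 of 16 H2B genes tested were among them, with 7 of 9 H3, 7 of 12 H4 and 2 of 5 H1 genes. Hist1h2ap stood at 2935 and 3260.3 CPM, 3.45 ± 0.12 (log2, SE) above resting cells. Hist1h2bm stood at 211 and 184 CPM, 3.66 ± 0.24 above. Hist1h1e, which was called in replicating cells, had 552 and 810.3 CPM and lay 0.86 ± 0.14 above resting cells, short of the fold required.

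Set directly against dual-marker cells, mitotic cells had 18 members called lower (5.88% of all genes were) and 0 called higher (4.25% of all genes were). DESeq2 also called 0 higher, and 2 members were higher at an unadjusted p under 0.05. The 18 were 6 of 9 H3, 4 of 12 H2A, 3 of 5 H1, 3 of 12 H4 and 2 of 16 H2B genes. Hist1h1b fell most among the H1 genes, by 1.80 ± 0.11 on the log2 scale to 1069 and 1500.3 CPM. Hist1h2ap fell by 1.51 ± 0.10 and Hist1h3b by 1.43 ± 0.18. Of the H2B genes, Hist1h2br had 187, 301 and 309 CPM in dual-marker and 264 and 336 CPM in mitotic cells, a difference of -0.17 ± 0.15 with an adjusted p of 0.471. Hist1h2bm differed by -0.64 ± 0.15 and was not called.

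The test between replicating and mitotic cells named the members that belonged more to one state. Called lower in replicating cells were 9 members (10.0% of all genes were): 6 H2B, 2 H2A and 1 H3 gene. Called higher were 2 (11.1% of all genes were), Hist1h1a and Hist1h4a. As shares of the 54 members these are 16.7% and 3.70%, and the median of -0.43 over the members stood against -0.03 over all genes.

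Of the H2B genes Hist3h2ba differed most, with 11.6 and 7.02 CPM in replicating and 101 and 127 CPM in mitotic cells, -3.24 ± 0.36 (log2, SE) with an adjusted p of 2.86e-10. Hist2h2be had 8.44 and 7.02 against 57.0 and 38.0 CPM, -2.58 ± 0.47 with an adjusted p of 1.79e-05. Against resting cells, Hist2h2be was 1.26 ± 0.35 higher in mitotic cells, which was called (adjusted p = 0.428 in DESeq2), and Hist3h2ba differed by 0.64 ± 0.23, which was not. Hist1h2bl had 8.44 and 3.51 against 22.8 and 38.0 CPM, -1.76 ± 0.63 with an adjusted p of 0.0265 (0.147 in DESeq2). Hist2h2ab, an H2A gene, had 28.5 and 18.99 CPM in mitotic and 1.06 and 0 CPM in replicating cells, the latter from 1 UMI. Hist1h1a went the other way with 299 and 284 against 140.5 and 171 CPM, 1.06 ± 0.18 with an adjusted p of 3.09e-06. Hist1h4a had 79.1 and 59.6 against 36.1 and 44.3 CPM, 1.05 ± 0.31, and DESeq2 did not call it at an adjusted p of 0.167. With total UMIs in place of TMM scaling both lay just under the fold required, at 0.98 and 0.96. Hist1h2ap itself was not called between these states, at 0.10 ± 0.11 with an adjusted p of 0.510.

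These contrasts depend on where the dual-marker cells are placed. With dual-marker cells counted as replicating, Hist2h2be was 0.22 from resting cells and Hist3h2ba -0.50, and neither was called. With dual-marker cells counted as mitotic, the log2 differences of Hist1h1a and Hist1h4a turned to -0.40 and -0.49, and 34 members were called lower there instead of 9. Both placements were added after the data were examined.

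**Figure D3:**
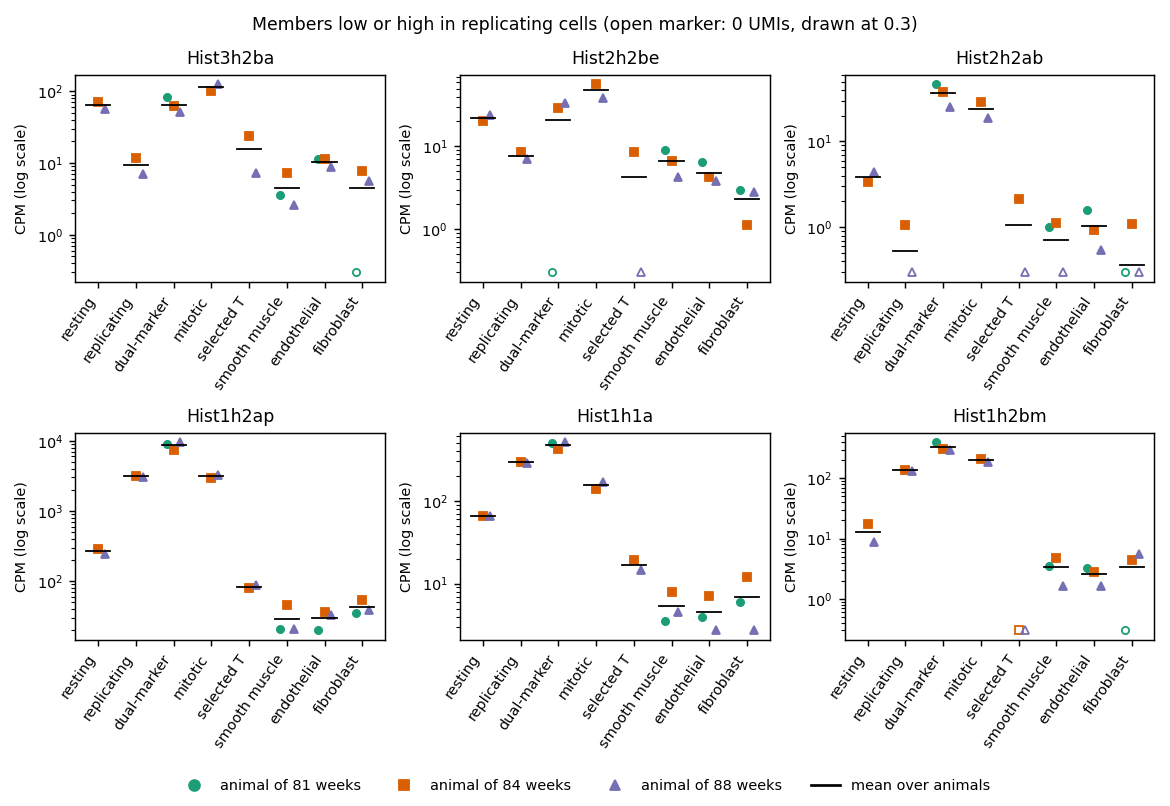
CPM (log scale) of 6 members by cell class; points are animals, black lines the means, and an open marker is a sum with 0 UMIs drawn at 0.3. Hist3h2ba, Hist2h2be and Hist2h2ab dip in replicating cells, while Hist1h2ap, Hist1h1a and Hist1h2bm rise there.

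Levels per cell were uneven within the dividing states. With every cell thinned to 1000 UMIs, resting cells had a median of 2 histone UMIs (quartiles 1 and 4), replicating cells 6 (3 and 14, highest 51), dual-marker cells 29 (17 and 40, highest 79) and mitotic cells 5 (2 and 21, highest 50). Unthinned medians were 7, 29, 174 and 24.5 UMIs. At least 10 histone UMIs of 1000 were present in 0.536% of resting, 32.4% of replicating, 81.5% of dual-marker and 34.7% of mitotic cells. The share in replicating cells was 34.9% and 25% in the animals of 84 and 88 weeks, and that in mitotic cells 33.3% and 37.9%. So most cells in the replicating and mitotic clusters carried few histone UMIs and a minority carried many, while dual-marker cells were mostly high. Cells of 1 animal are not replicates, and no test was made on these shares.

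**Figure D4:**
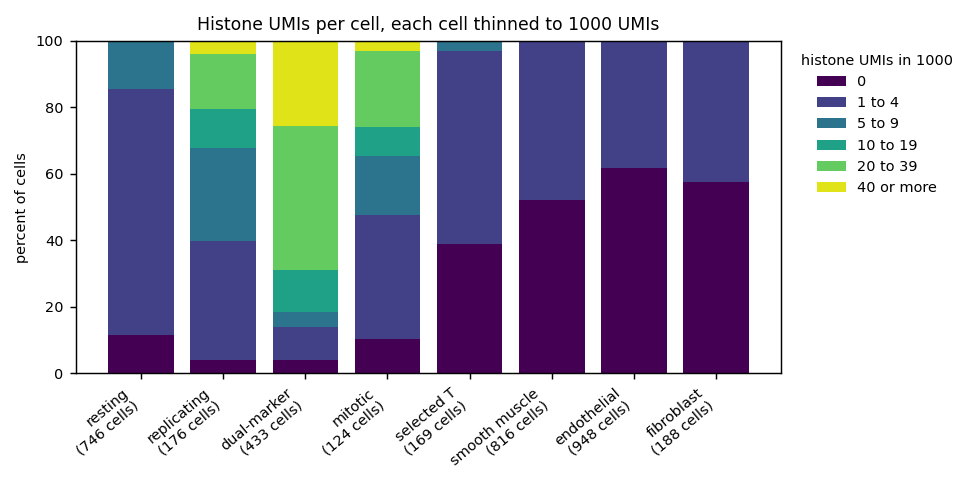
Percent of cells by the number of histone UMIs among 1000 UMIs drawn from each cell, for 8 classes with their numbers of cells. Of the dual-marker cells 81.5% held 10 or more, against 32.4% of replicating and 34.7% of mitotic cells.

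Related genes outside the clusters were followed over the same states. Of the processing and transcription list, 6 of 20 passed the call as higher in replicating than in resting cells and 1 as lower, where 18.2% and 13.2% of all genes were: E2f1, Casp8ap2, Slbp, Eri1, Cpsf2 and Cstf2 rose and Tut7 fell. Slbp, the stem-loop binding protein, had 35.9 and 39.3 CPM in resting, 551 and 572 in replicating, 422, 359 and 381 in dual-marker and 43.7 and 44.3 CPM in mitotic cells. It was 3.75 ± 0.20 (log2, SE) higher in replicating than in mitotic cells, with values that did not overlap. Npat, which activates histone gene transcription, differed by 0.89 ± 0.23 between replicating and resting cells, which was not called, and was 1.57 ± 0.33 higher in replicating than in mitotic cells. Pcna, the replication clamp used to form the states, had 58.9 and 37.1 CPM in resting, 1035 and 1112 in replicating and 89.2 and 50.6 CPM in mitotic cells. In the same sums over mitotic cells, where Slbp and Pcna were near their resting levels, Hist1h2ap had 2935 and 3260.3 CPM. Whether the single cells low in Slbp and Pcna were those that held Hist1h2ap was not tested.

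Histone chaperones, which carry new histones to DNA, were called higher in 18 of 22 cases in replicating cells and 8 of 22 in mitotic cells, each against resting cells, where 18.2% and 7.94% of all genes were. Chaf1b, on this list, was also among the replication markers used to name the states, so it is not independent of that naming. Asf1b rose by 5.60 ± 0.40 (log2, SE) and Nasp by 2.57 ± 0.16 in replicating cells. The list medians against resting cells were 2.03 in replicating and 0.52 in mitotic cells, beside -0.01 over all genes in both.

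Most histone variants outside the clusters have polyadenylated mRNA. The share of each variant's RNA that was captured, that of H2afx included, was not measured either. Of the 10 tested, H2afz and H2afx were called higher in replicating cells, by 2.63 ± 0.11 and 1.85 ± 0.23 (log2, SE), a share near the 18.2% of all genes. In mitotic cells 5 were, where 7.94% of all genes were: H2afz, Cenpa, H1fx, H2afx and H2afv. H2afx, the H2A variant that is phosphorylated at DNA breaks, had 25.3 and 24.0 CPM in resting, 86.5 and 91.2 in replicating, 386, 488 and 532 in dual-marker and 484 and 481 CPM in mitotic cells. Between replicating and mitotic cells it differed by -2.37 ± 0.17 on the log2 scale. H3f3b, an H3.3 gene, differed by -0.44 ± 0.11 between replicating and resting cells and was not called.

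The non-dividing wall cells held little captured histone RNA. The summed level was 606 ± 82.3 CPM (SD, n = 3 animals) in smooth muscle-like, 477 ± 23.1 in endothelial-like and 449 ± 109 in fibroblast-like cells, against 2509.9 ± 94.7 (n = 2) in resting thymocyte-like cells. Selected T cells, of the same lineage, had 1076 ± 26.5 CPM (n = 2). Their cluster scored 1.86 on markers of selected or mature T cells and still 1.72 on those of double-positive thymocytes. Of the 39 members tested, 37 were called lower in smooth muscle-like (19.7% of all 12006 genes were), 36 in endothelial-like (17.0%) and 34 in fibroblast-like cells (18.1%) than in resting cells. Hist1h2bc was called higher in smooth muscle-like cells, the only 1 of the 39 members (29.1% of all genes were), and 0 members were called higher in endothelial-like (25.5%) or fibroblast-like cells (27.0%), each with 1 member higher at an unadjusted p under 0.05 and 0 called higher by DESeq2. These 3 comparisons share the resting cells. Without the animal of 84 weeks, which holds most resting cells, 32 members were tested, and 22, 21 and 18 were called lower. With doublets kept in, 23 were called lower in smooth muscle-like cells, whose summed level was then 978 CPM.

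Hist1h2bc led the wall cells, with 30.9% of the member CPM in smooth muscle-like, 20.2% in endothelial-like and 17.9% in fibroblast-like cells. It had 196, 184 and 181 CPM in smooth muscle-like cells of the animals of 81, 84 and 88 weeks, 97.0, 90.8 and 101 in endothelial-like and 86.2, 88.4 and 66.5 CPM in fibroblast-like cells. All 3 smooth muscle values lay above those of every other class shown, dual-marker cells with 164, 157 and 128 CPM included. Against resting cells it was 1.82 ± 0.17 (log2, SE) higher in smooth muscle-like cells, with an adjusted p of 2.89e-10 in edgeR's quasi-likelihood test. In endothelial-like cells the difference was 0.78 ± 0.18 and in fibroblast-like cells 0.48 ± 0.21, neither called. The log2 difference of endothelial-like minus smooth muscle-like cells was -1.04 ± 0.12, lower in 3 of 3 animals, with an adjusted p of 2.22e-08. It stood between -0.865 and -0.997 under 7 alternatives, just under the fold required. A UMI of Hist1h2bc was present in 80.3% of smooth muscle-like, 34.3% of endothelial-like, 38.3% of fibroblast-like and 14.9% of resting cells, at median depths of 12106.5, 4172.5, 7992 and 2864 UMIs. Thinned to 1000 UMIs the shares were 17.6%, 9.18%, 7.45% and 7.10%.

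Linker histone genes came next. Hist1h1c had 75.1, 82.7 and 68.5 CPM in smooth muscle-like, 64.9, 54.8 and 56.3 in endothelial-like and 35.7, 64.1 and 72.0 CPM in fibroblast-like cells. Its log2 differences from resting cells were -1.34 ± 0.15, -1.80 ± 0.16 and -1.86 ± 0.19 (SE), all called. Hist1h1d, which stood above Hist1h1c in resting cells, differed from resting cells by -3.59 ± 0.19 in smooth muscle-like cells, at 15.2, 27.7 and 17.5 CPM. Hist1h1e had 55.8, 81.0 and 69.4 CPM in smooth muscle-like and 45.7, 49.1 and 42.1 CPM in endothelial-like cells. H1f0, the linker histone of resting cells outside the clusters, went the other way, from 20.2 and 19.7 CPM in resting cells to 109.8, 85.2 and 102 CPM in endothelial-like cells, 2.29 ± 0.22 higher.

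Hist2h2aa1 was the H2A gene of highest level in endothelial-like cells. It had 48.9, 56.6 and 59.1 CPM there, -0.20 ± 0.19 (log2, SE) from resting cells and not called, and 31.0, 31.8 and 27.6 CPM in smooth muscle-like cells. Endothelial-like values lay above the smooth muscle-like ones in 3 of 3 animals, by 0.80 ± 0.15, which is short of the fold required. Without wall cells that held T cell RNA the difference was 1.18 and called. Hist3h2a, with 18.4, 18.3 and 10.9 CPM in endothelial-like and 10.7, 10.8 and 8.44 CPM in smooth muscle-like cells, was not called in any wall comparison. Between endothelial-like and smooth muscle-like cells, 1 member was called higher, Hist3h2ba at 1.05 ± 0.32 (14.5% of all genes were), and 2 lower, Hist1h2bc and Hist1h2ad (17.1% of all genes were). Hist1h2ad had 0 UMIs in endothelial-like cells and 0, 1.67 and 0.974 CPM in smooth muscle-like cells, so its call rests on few UMIs. Hist3h2ba, at 11.2, 11.2 and 8.75 against 3.55, 7.25 and 2.60 CPM, lost its call under 6 alternatives, with values of 0.75 to 0.97.

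RNA of T cells moved with these levels. At least 2 UMIs of T cell markers were present in 32.1%, 77.3% and 48.1% of the smooth muscle-like cells of the animals of 81, 84 and 88 weeks, and the summed marker level was 670 CPM in smooth muscle-like, 393 in endothelial-like and 1002.5 CPM in fibroblast-like cells, against 16907 CPM in resting thymocyte-like cells. Hist1h2ap, the main member of dividing thymocyte-like cells, had 20.8, 46.1 and 20.8 CPM in smooth muscle-like cells in the same order of animals, highest where T cell RNA was. The kept cells held more T cell RNA than all cells of at most 1 hashtag, where the marker level was 188 CPM in smooth muscle-like and 291 CPM in fibroblast-like cells, and the members' share of UMIs there was 0.0538% and 0.0377%. Over all smooth muscle-like cells of at most 1 hashtag, leaving out those with T cell RNA took Hist1h2ap from 22.5 to 14.1 CPM and Hist1h2bc from 193 to 195.5 CPM. With doublets kept in, the log2 difference of Hist1h2ap from resting cells was -0.64 in place of -2.76 ± 0.16. Among kept cells the summed level without such cells was 493 CPM in smooth muscle-like, 431 in endothelial-like and 312 CPM in fibroblast-like cells. Hist1h2bc in smooth muscle-like cells was thus as high without T cell RNA, while the part of T cell RNA in the other members' levels was not tested further.

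**Figure D5:**
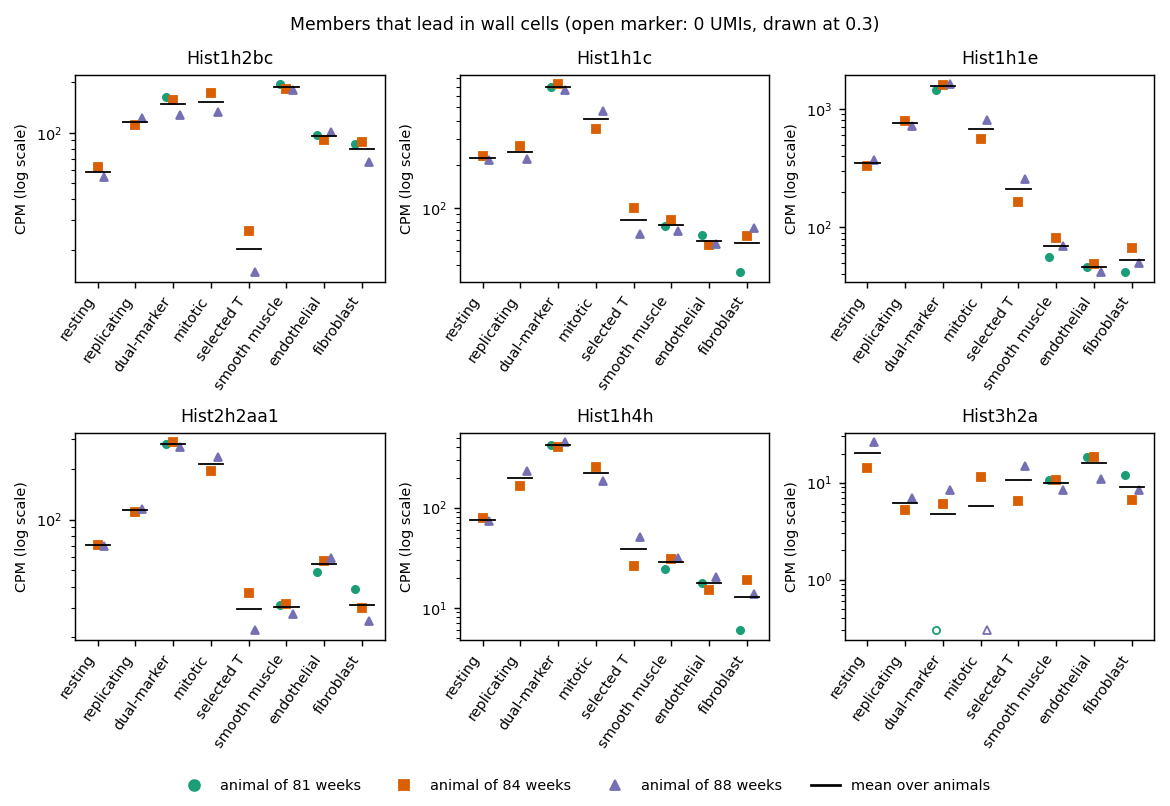
CPM (log scale) of 6 members by cell class; points are animals and black lines the means. Hist1h2bc is highest in smooth muscle-like cells (196, 184 and 181 CPM), and Hist2h2aa1 is higher in endothelial-like than in smooth muscle-like cells in each animal.

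Many H2A and H2B genes start back to back. Among the 62 members with a promoter in RefSeq, 10 such divergent pairs were found, all on chromosome 13, with 164 to 281 bases between the start sites. Hist1h2bc and Hist2h2be had no promoter there, so any pair that holds them could not be counted. In CPM, without scaling to length, the H2A gene stood higher in dual-marker cells in 6 pairs and the H2B gene in 3; 1 of the 6, Hist1h2ao with Hist1h2bq, rests on 0.127 CPM against 0. Per kilobase of gene model the counts were 7 and 2, since Hist1h2an (20.1 CPM) and Hist1h2bp (64.9 CPM) change order through the 14079 bases of the Hist1h2bp model. Hist1h2ae had 7684 CPM per kilobase of gene model and Hist1h2bg, 180 bases away, 58.4. The reverse held for Hist1h2ag with 40.5 and Hist1h2bj with 379 CPM per kilobase, 249 bases apart. In Hist1h2ak and Hist1h2bn, 164 bases apart, the levels were 240.5 and 176. Neighbours that share this stretch thus differed widely in captured RNA, subject to the untested assignment of reads among near-identical copies. The model of an H2B gene spans over 2000 bases in 6 members, some of them in these pairs, which lowers their level per kilobase, and 61 members have models under 1000 bases.

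Over the 30 sums of class and animal, the genes most alike Hist1h2ap in log2 CPM were Hist1h3c (Pearson r = 0.972), Hist1h2ab (0.965) and Pclaf (0.957), a Pcna-binding factor. For Hist1h1b they were Hist1h3c (0.935), Hist1h3f (0.934) and Smarcc1 (0.933), and for Hist1h2ae they were Hist1h2ap (0.948), Hist1h3c (0.938) and Hmgn2 (0.934). Sums of 1 animal share its cells, and the classes differ in depth, so these values describe the sums only.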

How the data were processed

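The authors deposited raw UMI counts per gene and barcode, made with Cell Ranger 6.0.1 per the file headers; the submitters' processing notes also name Seurat 4.0.5 and mm10. The annotation version is not given in the sources used here. Barcodes start at 900 UMIs (median 2975). Per the labels, the kit was a 3′ v2 kit, and nothing states strand.

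Hashtags were called with HTODemux of Seurat 5.3.0 (quantile 0.99). A kept cell had 500 or more genes, 1000 or more UMIs, a mitochondrial share under 15%, a single hashtag and a doublet score (Scrublet method) under 0.25. The automatic cutoff called 0 doublets, so this cutoff was set after the data were examined; it called 567 of 11301 cells (5.02%). Cells were clustered with scanpy 1.11.5 (2000 variable genes, 30 components, 15 neighbours, Leiden resolution 0.8) without the members, variants, processing genes and chaperones, mitochondrial and ribosomal protein genes. A cluster was named from marker lists where their mean log2 level over all clusters reached 1.5 with at least 3 markers raised; these limits, and the dual-marker state, were set after the data were examined. Names were rebuilt here and can differ from the study's.

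UMI sums per animal and class with at least 10 cells were tested with edgeR 4.0.16 (R 4.3.3; quasi-likelihood F test with animal as a block, after TMM scaling and filterByExpr, Benjamini-Hochberg over all genes). The thymocyte-like fit had 9 sums, 3 residual degrees of freedom and 7429 genes, and the wall fit 11 sums, 5 degrees of freedom and 12006 genes. On simulated data the first called 37% of 2-fold and 97% of 4-fold changes, with 2 false calls among 6989 genes. The animal pairs the sums by design, since each animal gave every class it enters; deviations of same-animal sums had correlations of -0.01 to 0.02. With animals of one age group and no other replication, p-values set differences between classes against the spread of these animals' sums, after the animal block. The fit drew each gene's spread toward that of all genes tested. A small p-value or SE therefore rests in part on other genes, and not on that gene's variation across animals alone. Alternatives were DESeq2 1.42.0, other scalings, filters and cell sets, and leaving out each animal.

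The members and gene lists were chosen with earlier results of these data known. Named were, per comparison and type, the 3 called members of largest change with the same sign in both animals and at least 20 CPM, the most abundant member of each type, members with 50 CPM in a non-dividing class, and 12 related genes; Hist3h2a and the divergent pairs were chosen after their values were seen. The comparison of chaperones between replicating and mitotic cells is not reported here.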

Additional observations from a re-analysis of the deposited data

Results flagged for a closer look

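Hist3h2ba and Hist2h2be, both H2B genes, moved in opposite directions in the dividing states, lower in replicating and higher in mitotic cells, each against resting cells. The log2 difference of replicating minus mitotic cells, tested directly with edgeR's quasi-likelihood test, was -3.24 for Hist3h2ba and -2.58 for Hist2h2be, in 2 of 2 animals. The rise of Hist3h2ba in mitotic cells over resting cells was not itself called. Hist2h2be was called in both comparisons with resting cells by edgeR but not by DESeq2, at adjusted p of 0.164 and 0.428. With dual-marker cells counted as replicating, Hist2h2be was 0.22 and Hist3h2ba -0.50 from resting cells, neither called. Both genes were flagged because their signs differed and the direct test was called, so that test is no further support.

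Neutrophil-like cells, which entered no comparison, had 0.316% of their UMIs from the members, above the 0.255% of resting thymocyte-like cells. There were 69 such cells, with 0.172% in the animal of 84 weeks and 0.805% in that of 88 weeks. Of these cells 92.8% held at least 2 UMIs of T cell markers, whose summed level was 4034 CPM. Their cluster also scored 1.74 on mitosis markers and 1.4 on replication markers, so it cannot be taken as non-dividing. The parts of T cell RNA and of dividing cells in the histone share were not tested.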

How the results depend on the processing

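For the single genes given in the text, 1632 tested values under an alternative kept direction and side of the threshold, 74 lost a call, 22 gained one and 13 reversed. Of their values with no test, 187 moved by less than 0.5 on the log2 scale and 30 by more; of the summed levels of types, 138 moved by less than 1 SD over animals and 22 by more. The tests between thymocyte-like states rest on 2 animals, and leaving out either leaves no residual degrees of freedom, so those values carry no test; without the animal of 84 weeks Hist3h2ba differed by -4.01 between replicating and mitotic cells. A median depth of 2864 UMIs in resting cells limits members near 1 UMI.

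With DESeq2 1 member was called lower in replicating than resting cells (2 in edgeR), 1 higher in replicating than mitotic cells (2), 24 higher in dual-marker than replicating cells (37; 42 had an adjusted p) and 0 lower in endothelial-like than smooth muscle-like cells (2). Without the replicate block, that is the pairing of sums by animal, 0 members were called higher in endothelial-like than smooth muscle-like cells (1), and no other count changed by over 1.5 times. With no filter on low counts, 1 was called lower in dual-marker than resting cells (0) and 1 lower in endothelial-like than smooth muscle-like cells. With total UMIs as scaling, 0 were higher in replicating than mitotic cells, 1 was lower in endothelial-like than smooth muscle-like cells, and H2afz differed by -0.021 (0.07) between replicating and mitotic cells. With a library size without histone, mitochondrial and ribosomal protein genes, 1 was lower in endothelial-like than smooth muscle-like cells. The median of all genes in smooth muscle-like against resting cells was 0.16 with TMM, -0.03 with total UMIs and -0.17 with that library size, and the share of calls that were higher fell from 59.6% to 47.5%; for endothelial-like cells they were 0.09, -0.02 and -0.17, and 60.0% and 49.1%; for fibroblast-like cells 0.08 and -0.09 with that library size. DESeq2 moved the share of calls that were higher from 68.0% to 83.2% for dual-marker against replicating and from 73.9% to 88.6% for mitotic against resting cells.

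Leaving out each animal, 22 to 37 members were called lower in smooth muscle-like, 21 to 36 in endothelial-like and 18 to 33 in fibroblast-like cells than in resting cells, lowest without the animal of 84 weeks, where 32 were tested; between endothelial-like and smooth muscle-like cells 0 to 1 were higher and 1 to 3 lower. With doublets kept in, 23 were lower in smooth muscle-like than resting cells, 0 higher and 20 lower in endothelial-like than smooth muscle-like cells, and the summed levels were 978 CPM (smooth muscle-like) and 757 CPM (fibroblast-like). Without wall cells that held T cell RNA, 5 were higher in endothelial-like than smooth muscle-like cells, and the summed levels were 493, 431 and 312 CPM in smooth muscle-like, endothelial-like and fibroblast-like cells.

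Under 10% mitochondrial UMIs, 38 members were tested in thymocyte-like and 20 in wall cells, fewer than in the full set. Then 1 was lower in replicating than resting cells, 26 higher in mitotic than resting cells, 0 higher and 4 lower in replicating than mitotic cells, and 23 higher in dual-marker than replicating cells. In smooth muscle-like, endothelial-like and fibroblast-like cells 12, 14 and 12 were lower than in resting cells, 1 was higher in endothelial-like cells, and 0 were higher and 1 lower in endothelial-like than smooth muscle-like cells. Pcna turned to -0.51 in mitotic against resting and H3f3b to 0.21 in smooth muscle-like against resting cells. With each hashtag 2 times its cutoff or more, 42 and 19 members were tested. Then 1 was lower in replicating than resting cells, 4 lower in replicating than mitotic, 23 higher in dual-marker than replicating and 1 higher in mitotic than dual-marker cells. In the wall classes, in the same order, 17, 16 and 13 were lower than in resting cells, and 0 were higher and 0 lower in endothelial-like than smooth muscle-like cells. Slbp turned to -0.12 in mitotic against resting cells.

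With dual-marker cells counted as replicating, 0 were lower in replicating than resting cells, and 10 were higher and 2 lower in replicating than mitotic cells. Hist2h2be turned to 0.22 and H3f3b to 0.13 against resting cells, and Hist1h2ac to 0.46 and Top2a to 0.036 against mitotic cells. With these cells counted as mitotic, 1 was lower in mitotic than resting cells, and 0 were higher and 34 lower in replicating than mitotic cells. There Hist1h1a turned to -0.40, Hist1h4a to -0.49, Hist1h2ap to -1.21, Hist1h1b to -0.85 and H2afz to -0.27. The mean per 1000 UMIs was 11.3 unthinned in replicating cells (10.7 thinned), and over all cells of at most 1 hashtag 0.533 in smooth muscle-like cells (0.707) and 0.375 in fibroblast-like ones (0.543). Except where fewer members or cells were tested, the cause of these changes was not tested.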

Other observations

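Pericyte-like cells could be named only among all cells of at most 1 hashtag, pooled over animals, and entered no comparison. Hist1h2bc had 177 CPM in these 122 cells and 162 CPM in the 75 of them without T cell RNA, beside 193 CPM in smooth muscle-like cells and 101 CPM in fibroblast-like cells of the same set. Hist1h2ap had 17.7 CPM in the pericyte-like cells. These are values of 1 pool, without replicates.

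Hist4h4, the H4 gene on chromosome 6, had a mean of 11.6 CPM in resting, 21.6 in replicating, 9.29 in dual-marker and 10.4 CPM in mitotic cells, and it was called in no comparison of thymocyte-like states. It was chosen after its values were seen.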
